A study of Glycine max with 9 samples.

Results

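Lipoxygenases are iron-containing enzymes that add oxygen to polyunsaturated fatty acids such as linoleic and linolenic acid. The hydroperoxides they make feed the synthesis of jasmonates and of the volatile aldehydes released by damaged leaves. Soybean has isoforms of the seed and a separate group of vegetative isoforms, several of which accumulate in leaf cells and are known as temporary storage proteins as well as enzymes. The genes described here are tandem copies of this family on chromosomes 7 and 8. They were chosen by a list of 9 identifiers, 3 on chromosome 7 and 6 on chromosome 8. The table of expression values held 8 of them among 49777 genes. Glyma07g00890 was not analysed here. On chromosome 7 these were Glyma07g00900 and Glyma07g00920, and on chromosome 8 Glyma08g20190, Glyma08g20200, Glyma08g20210, Glyma08g20220, Glyma08g20230 and Glyma08g20250. The values come with no gene names, and 0 of the 49777 identifiers matched a RefSeq gene table, so the family name rests on the list alone. No copy could be given an isoform name, a length, coordinates or a sequence, and the leaf label could not be checked against marker genes.

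RNA was sequenced from the unifoliates, the first pair of true leaves, of 2-week-old Williams 82 soybean seedlings. All plants grew at 20 °C on a day of 18 h light and 6 h dark, with neither Rhizobium nor fertilizer. The 0 h group was harvested 4 h into the light period without chilling, and the other groups after 1 h and 24 h at 4 °C. Each group had 3 libraries, with at least 6 plants behind each. Harvest thus came 5 h into the light period for the 1 h group, and a day later in plant age for the 24 h group. Unchilled leaves of that hour or that age were not analysed here, so time in the cold cannot be told apart from hour of day at 1 h or from age at 24 h.

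The replicate number separated the libraries more than time did. Over all genes tested it accounted for 87.7% of the variation of log2 values (sums of squares), and time for 5.05%. The libraries of replicate number 3 stood apart from those of numbers 1 and 2, and what a number shares is not stated in the labels. Library totals were 71.0 to 81.9 M normalized read counts. The estimated depth was 18.0 to 67.8 M reads, with 1 read worth 1.17 to 4.13 normalized counts.

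Glyma07g00900 supplied nearly all the reads of the 8 listed copies. Lipoxygenase genes elsewhere in the genome were not summed. In replicate 1 its normalized read count was 58514 at 0 h, 45535 after 1 h and 49343 after 24 h. In replicate 2 it was 61247, then 48016 and 54633. In replicate 3 it was 29155, then 19441 and 20559. Replicate 3 was lowest at each time, and within each replicate number the 0 h library was the highest. This gene held 98.85% to 99.41% of the counts summed over the 8 genes. By its mean of 42938 it was in place 194 of the 49777 genes. These are reads per gene, not divided by gene length, so they give no order of transcript levels between genes. Together the 8 genes took 0.0251% to 0.0831% of a library. It was not stated how reads shared by near-identical copies were counted, so the value of any single copy is uncertain to that extent.

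The other chromosome 7 copy, Glyma07g00920, was barely detected. Over the 3 times its normalized count went from 8 to 5 to 3 in replicate 1, from 4 to 0 to 2 in replicate 2 and from 2 to 1 to 0 in replicate 3. The highest of these was worth about 3 reads, and the gene was listed at 0 in 2 libraries.

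On chromosome 8 most reads fell on Glyma08g20230 and Glyma08g20220. The 6 copies together had 134 to 650 normalized counts in a library. The count of Glyma08g20230 in replicate 1 was 393 at 0 h, 213 after 1 h and 243 after 24 h. In replicate 2 it was 440, then 205 and 338, and in replicate 3 it was 43, then 25 and 35. All 3 libraries of replicate number 3 lay far below the other 6, and within each number the lowest value was that of 1 h. Glyma08g20220 had 139 normalized counts at 0 h in replicate 1, then 79 and 114. It had 98, then 112 and 164, in replicate 2, and 74, then 52 and 70, in replicate 3. The 3 times overlapped, and replicate number 3 was again lowest at each time.

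The remaining chromosome 8 copies had few reads. Glyma08g20250 ranged from 23 to 57 normalized counts over the 9 libraries, Glyma08g20200 from 9 to 52, Glyma08g20210 from 7 to 24 and Glyma08g20190 from 3 to 15. Their values at the 3 times overlapped. For Glyma08g20210 the 0 h counts of 20, 10 and 9 in the 3 replicates were worth about 7.98, 2.42 and 5.79 reads. Changes of this gene therefore rest on a handful of reads. Means over the 9 libraries were 215.0 for Glyma08g20230, 100.2 for Glyma08g20220, 40.3 for Glyma08g20250, 28.8 for Glyma08g20200, 15.0 for Glyma08g20210, 7.0 for Glyma08g20190 and 2.78 for Glyma07g00920. Below Glyma07g00900, neighbours in this order of counts, which is not per length, overlapped in their ranges over the libraries.

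**Figure D1:**
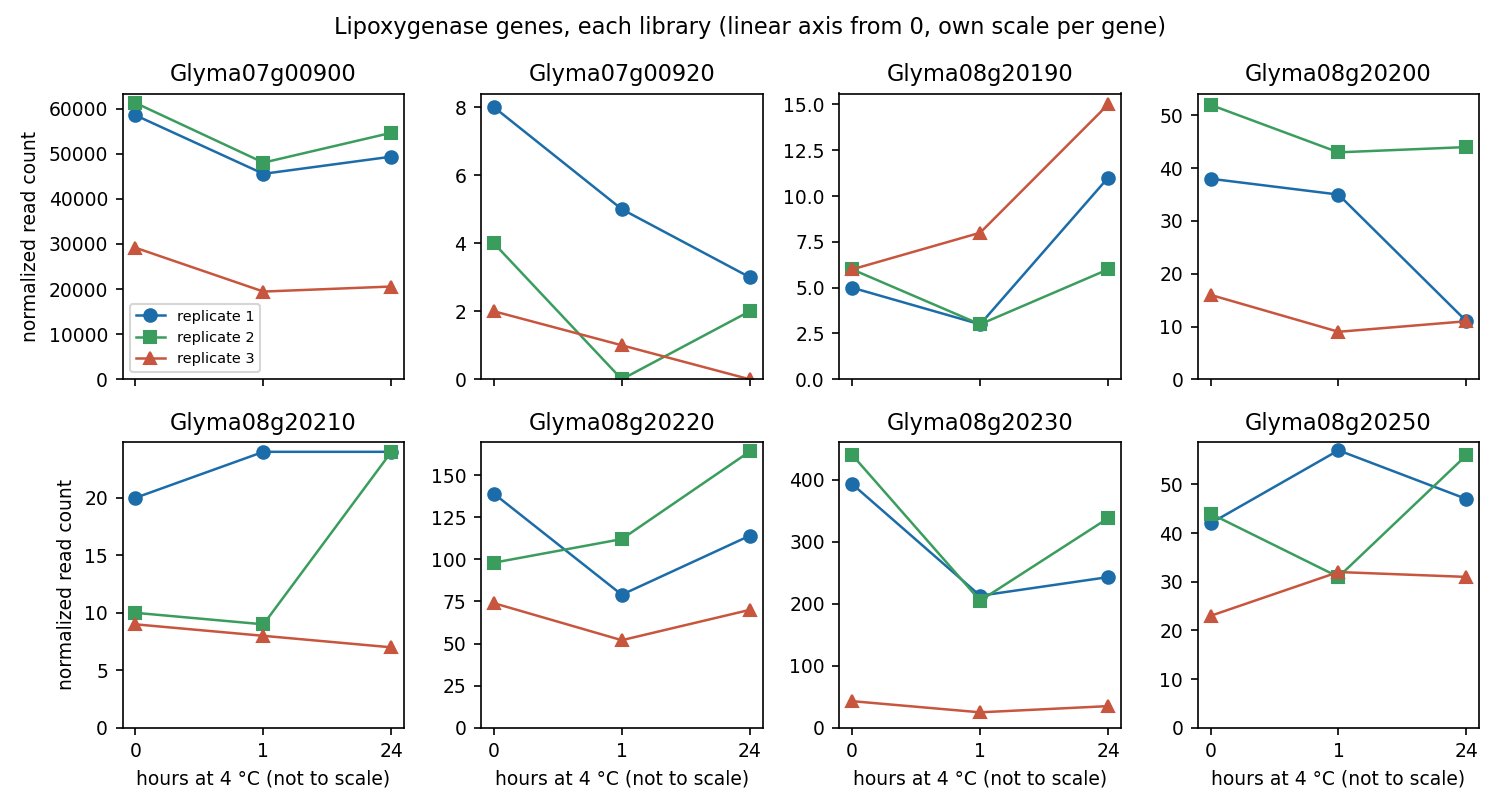
Normalized read counts (linear axis from 0, own scale per gene) of the 8 lipoxygenase genes at 0, 1 and 24 h at 4 °C, with 1 point per library and a line joining the libraries of 1 replicate number. Glyma07g00900 lies between 19441 and 61247, the chromosome 8 copies at 440 or below, and Glyma07g00900 and Glyma08g20230 are at their highest at 0 h within every replicate number.

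Differences between times were tested on log2(normalized count + 1) with limma, with the replicate number as a block. A gene was tested if its mean across the libraries was 10 or more. Of the 8 copies 6 passed this minimum, while Glyma07g00920 and Glyma08g20190 fell below it. Adjusted p-values are Benjamini-Hochberg values over all 38985 genes tested, and the SE is limma's moderated one, which draws on other genes too.

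After 1 h at 4 °C, Glyma07g00900 and Glyma08g20230 fell. Glyma07g00900 went from 49639 ± 17792 to 37664 ± 15830 normalized counts (mean ± SD, n = 3). Within replicates 1, 2 and 3 it was lower by 0.36, 0.35 and 0.59 on the log2 scale, a narrow spread compared with that between replicate numbers. The fitted log2 change was -0.43 ± 0.07 (SE, limma adjusted p = 0.0126), a change of -25.9% with a 95% interval from -33.8% to -17.0%. Glyma08g20230 went from 292.0 ± 216.9 to 147.7 ± 106.3 normalized counts (mean ± SD, n = 3). Its level changed by -45.8%, -53.4% and -41.9% in replicates 1, 2 and 3. Being lower in 3 of 3 replicate numbers, as both genes were, was found in 21.6% of all genes tested. The fitted log2 change was -0.91 ± 0.18 (SE, limma adjusted p = 0.02), or -46.9% with a 95% interval from -59.5% to -30.4%. Counting of the estimated reads alone would give an SE of 0.17 for this gene and of 0.00896 for Glyma07g00900.

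Both calls depend on the block. Without it the SE was 0.53 for Glyma07g00900 and 1.31 for Glyma08g20230, and both had a limma adjusted p of 1. The groups at 0 h and 1 h overlapped in both genes when replicate numbers were ignored. Without the libraries of replicate number 3 the log2 changes were -0.36 and -0.99 (limma adjusted p = 0.0185 and 0.0309). Both calls ended when replicate 1 at 0 h, replicate 1 at 1 h, replicate 3 at 1 h, or all libraries of number 1 or of number 2 were left out, with adjusted p-values of 0.0593 to 0.222 for Glyma07g00900 and 0.0704 to 0.251 for Glyma08g20230. That of Glyma08g20230 also ended without replicate 2 at 0 h or at 1 h (adjusted p = 0.085 and 0.0754). Because leaves were measured whole, fewer cells that express a gene and less RNA per cell cannot be told apart.

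The other 4 tested copies did not pass the test at 1 h. Their log2 changes were -0.38 ± 0.44 for Glyma08g20200, -0.37 ± 0.24 for Glyma08g20220, -0.01 ± 0.50 for Glyma08g20210 and 0.13 ± 0.32 for Glyma08g20250 (SE, limma adjusted p from 0.433 to 0.994). The 95% interval reached from -46.8% to 12.1% for Glyma08g20220 and from -53.9% to 113% for Glyma08g20210. A fall as large as that of Glyma07g00900 was thus inside the interval of each. For Glyma08g20220 replicates 1 and 3 were lower by 0.81 and 0.50 on the log2 scale and replicate 2 was higher by 0.19. Glyma08g20200, like the called genes, was lower in 3 of 3 replicate numbers, with log2 changes of -0.115, -0.268 and -0.766. Glyma08g20210 and Glyma08g20250 went both ways. In all, 2 of the 6 copies tested were called at 1 h, both lower, and their median log2 change was -0.38. Of all genes tested 4.47% were called and 2.07% were called lower, and the median log2 change was -0.02. Among genes averaging 1000 or more, such as Glyma07g00900, 10.1% were called. Among genes averaging 100 to 1000, such as Glyma08g20230, 3.01% were called.

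After 24 h at 4 °C, Glyma07g00900 was still below its 0 h level, and the change of Glyma08g20230 did not pass the test. Glyma07g00900 was at 41512 ± 18337 normalized counts (mean ± SD, n = 3) and differed from 0 h by -15.7%, -10.8% and -29.5% in replicates 1, 2 and 3. The fitted log2 change was -0.30 ± 0.07 (SE, limma adjusted p = 0.0416), or -19.1% with a 95% interval from -27.7% to -9.33%. This call was close to the threshold. Without the block the adjusted p was 1, and leaving out any single library or any replicate number raised it to between 0.0575 and 0.306. Without replicate number 3 the log2 change was -0.21 (limma adjusted p = 0.0679).

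Glyma08g20230 was at 205.3 ± 155.0 normalized counts at 24 h (mean ± SD, n = 3). The change from 0 h was -38.2%, -23.2% and -18.6% in replicates 1, 2 and 3, and 21.8% of all genes tested were likewise lower in 3 of 3. The log2 change was -0.45 ± 0.18 (SE, limma adjusted p = 0.181), with a 95% interval from -0.84 to -0.06. Glyma08g20200 had a log2 change of -0.81 ± 0.44 (SE, limma adjusted p = 0.34), with -1.7 in replicate 1 but -0.24 and -0.50 in replicates 2 and 3. Glyma08g20210, Glyma08g20220 and Glyma08g20250 had positive values of 0.37 ± 0.50, 0.12 ± 0.24 and 0.30 ± 0.32 (SE, limma adjusted p from 0.664 to 0.834). Glyma08g20250 was higher in 3 of 3 replicate numbers, as were 18.7% of all genes tested, and the other two were higher in only some. At 24 h 1 of the 6 copies was called, while 5.11% of all genes tested were called and 2.1% were called lower. Both comparisons use the same 0 h libraries, so they do not give independent evidence that Glyma07g00900 was lower in the cold.

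**Figure D2:**
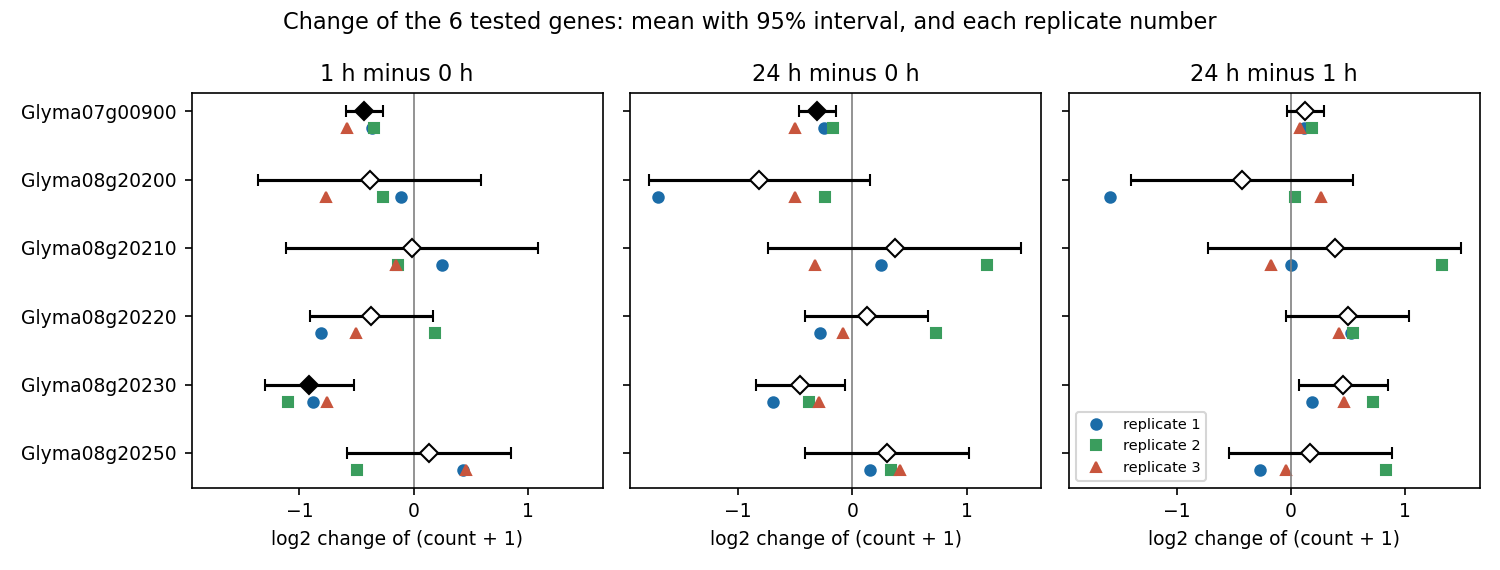
Log2 change of (normalized count + 1) of the 6 tested lipoxygenase genes in the 3 comparisons. Diamonds and bars give the limma estimate with the replicate block and its 95% interval, filled where the adjusted p is under 0.05, and the symbols below them give each replicate number. Filled diamonds stand at -0.43 and -0.91 at 1 h and at -0.30 at 24 h, while Glyma08g20200, Glyma08g20210, Glyma08g20220 and Glyma08g20250 have intervals more than 1 log2 unit wide.

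No copy was called between the 2 cold times, and none of the 38985 genes tested was, so the called share was 0.0%. In limma 2211 genes had an unadjusted p below 0.05, and the smallest adjusted p was 0.552. Of the 6 copies tested 5 had positive values. Glyma08g20230 was higher at 24 h by 0.19, 0.72 and 0.47 on the log2 scale in replicates 1, 2 and 3. The estimate was 0.46 ± 0.18 (SE, limma adjusted p = 0.859). Its 95% interval, not adjusted for the number of genes tested, ran from 0.07 to 0.85. Glyma08g20220 was higher by 0.52, 0.55 and 0.42, an estimate of 0.50 ± 0.24 (SE, limma adjusted p = 0.877). Glyma07g00900 was higher by 8.36%, 13.8% and 5.75%, an estimate of 0.13 ± 0.07 on the log2 scale (SE, limma adjusted p = 0.902). These 3 genes were thus higher at 24 h than at 1 h in 3 of 3 replicate numbers, which 14.2% of all genes tested were. The difference for Glyma07g00900 lay within a 95% interval from -2.46% to 22.4%, so a partial return from the 1 h level towards the 0 h level could not be shown. With library totals set equal, the median of all genes moved to -0.10 in this comparison and Glyma07g00900 to 0.03.

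The copies below the minimum are given for completeness. When all genes were tested, Glyma07g00920 had a log2 change of -1.16 ± 0.64 at both 1 h and 24 h (SE, limma adjusted p = 0.395 and 0.403). Glyma08g20190 had -0.34 ± 0.55 at 1 h and 0.73 ± 0.55 at 24 h (SE, limma adjusted p = 0.813 and 0.577). Its normalized count went from 5 to 3 to 11 over the 3 times in replicate 1, from 6 to 3 to 6 in replicate 2 and from 6 to 8 to 15 in replicate 3. These were worth about 1.11 to 9.06 reads.

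The changes of the 2 genes called at 1 h were set beside each other within replicate numbers. The ratio of Glyma08g20230 to Glyma07g00900 was lower at 1 h than at 0 h by 0.52, 0.75 and 0.17 on the log2 scale in replicates 1, 2 and 3. At 24 h it differed from 0 h by -0.45, -0.22 and 0.21. The larger fall of the chromosome 8 copy at 1 h was thus in the same direction in 3 of 3 replicate numbers, and the difference at 24 h was not. In replicate 3 the counts of Glyma08g20230 were worth only about 27.7 reads at 0 h and 18.8 at 1 h. The direction there is therefore uncertain. No test was run of these differences.

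Replicate number 3 differed from numbers 1 and 2 in how the reads were divided among the copies. Glyma08g20230 averaged 305 normalized counts over the 6 libraries of numbers 1 and 2 and 34.3 over the 3 of number 3, 8.89-fold lower. The corresponding factor was 3.1 for Glyma08g20200, 2.31 for Glyma08g20210, 2.29 for Glyma07g00900, 1.8 for Glyma08g20220 and 1.61 for Glyma08g20250. Of the copies with the fewest reads, Glyma07g00920 averaged 3.67 in numbers 1 and 2 and 1.0 in number 3, and Glyma08g20190 went the other way, with 5.67 and 9.67. In numbers 1 and 2 Glyma08g20230 took 50.9% to 67.7% of the counts of the 6 chromosome 8 copies, and Glyma08g20220 took 15.1% to 27.8%. In number 3 the order turned around, with 18.7% to 25.1% for Glyma08g20230 and 38.8% to 43.3% for Glyma08g20220. All 3 libraries of number 3 were below the other 6 for Glyma07g00900, Glyma08g20220 and Glyma08g20230, which was also so for 32.2% of all genes tested. A drop of more than 8-fold, as in Glyma08g20230, was found in 2.3% of them. On the log2 scale the replicate number accounted for 93.4% of the variation of Glyma08g20230 and 89.9% of that of Glyma07g00900, and time for 6.11% and 9.01%. The difference between replicate numbers was larger than either change in the cold.

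**Figure D3:**
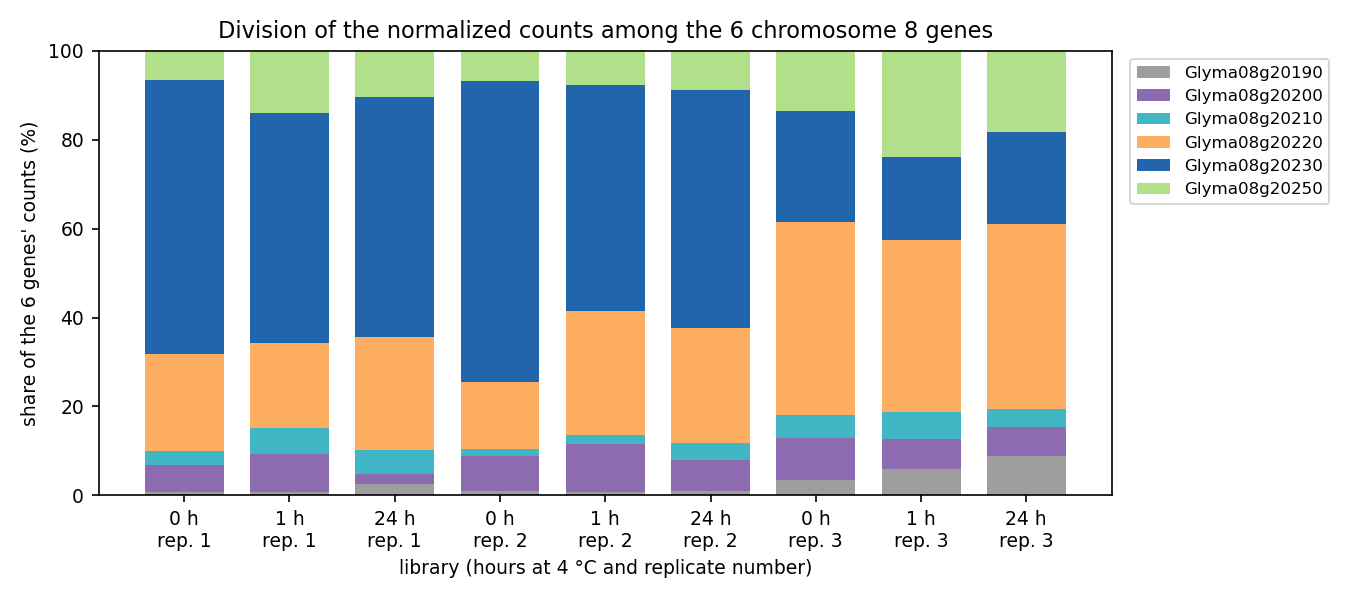
Share (%) of the normalized counts of the 6 chromosome 8 lipoxygenase genes held by each gene in each of the 9 libraries, ordered by replicate number. Glyma08g20230 holds 50.9% or more in the 6 libraries of numbers 1 and 2 and 25.1% or less in the 3 of number 3.

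Of the genes flanking the clusters, a few on chromosome 7 were called higher. No other identifier of the table lay between the listed copies on either chromosome. Among the 5 nearest identifiers on each side, 9 of 10 were tested on each chromosome. The gene before the chromosome 7 copies that is nearest among those tested, Glyma07g00873, had a log2 change of -0.42 ± 0.14 at 1 h (SE, limma adjusted p = 0.129). It is named after its values were seen. Called higher around the chromosome 7 copies were 1 at 1 h and 2 at 24 h. These were Glyma07g00850, with log2 changes of 0.53 ± 0.10 and 0.63 ± 0.10 (SE, limma adjusted p = 0.0213 and 0.0103), and Glyma07g00840, with 1.44 ± 0.25 at 24 h (SE, limma adjusted p = 0.0109). Both are named because they were called, and their function is not given in the sources used here. Over all genes tested 2.4% were called higher at 1 h and 3.01% at 24 h. Around the chromosome 8 copies 0 of 9 were called at either time. Their unadjusted p was under 0.05 for 0 genes at 1 h and 1 at 24 h (limma with the block). Among the 9 tested around the chromosome 7 copies it was so for 5 and 4. Over all 38985 genes tested it was so for 7839 and 7773. Log2 changes of the chromosome 8 neighbours at 1 h ran from -1.15 to 0.16. The lowest was that of Glyma08g20120, with an SE of 0.74 (limma adjusted p = 0.423). Its normalized counts in replicates 1, 2 and 3 were 3, 2 and 84 at 0 h and 0, 0 and 92 at 1 h. None of the tested neighbours on either chromosome was called lower, but with 2.07% and 2.1% of all genes called lower at the 2 times, a count of 0 among so few says nothing particular of them. No test compared the copies with their neighbours.

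**Figure D4:**
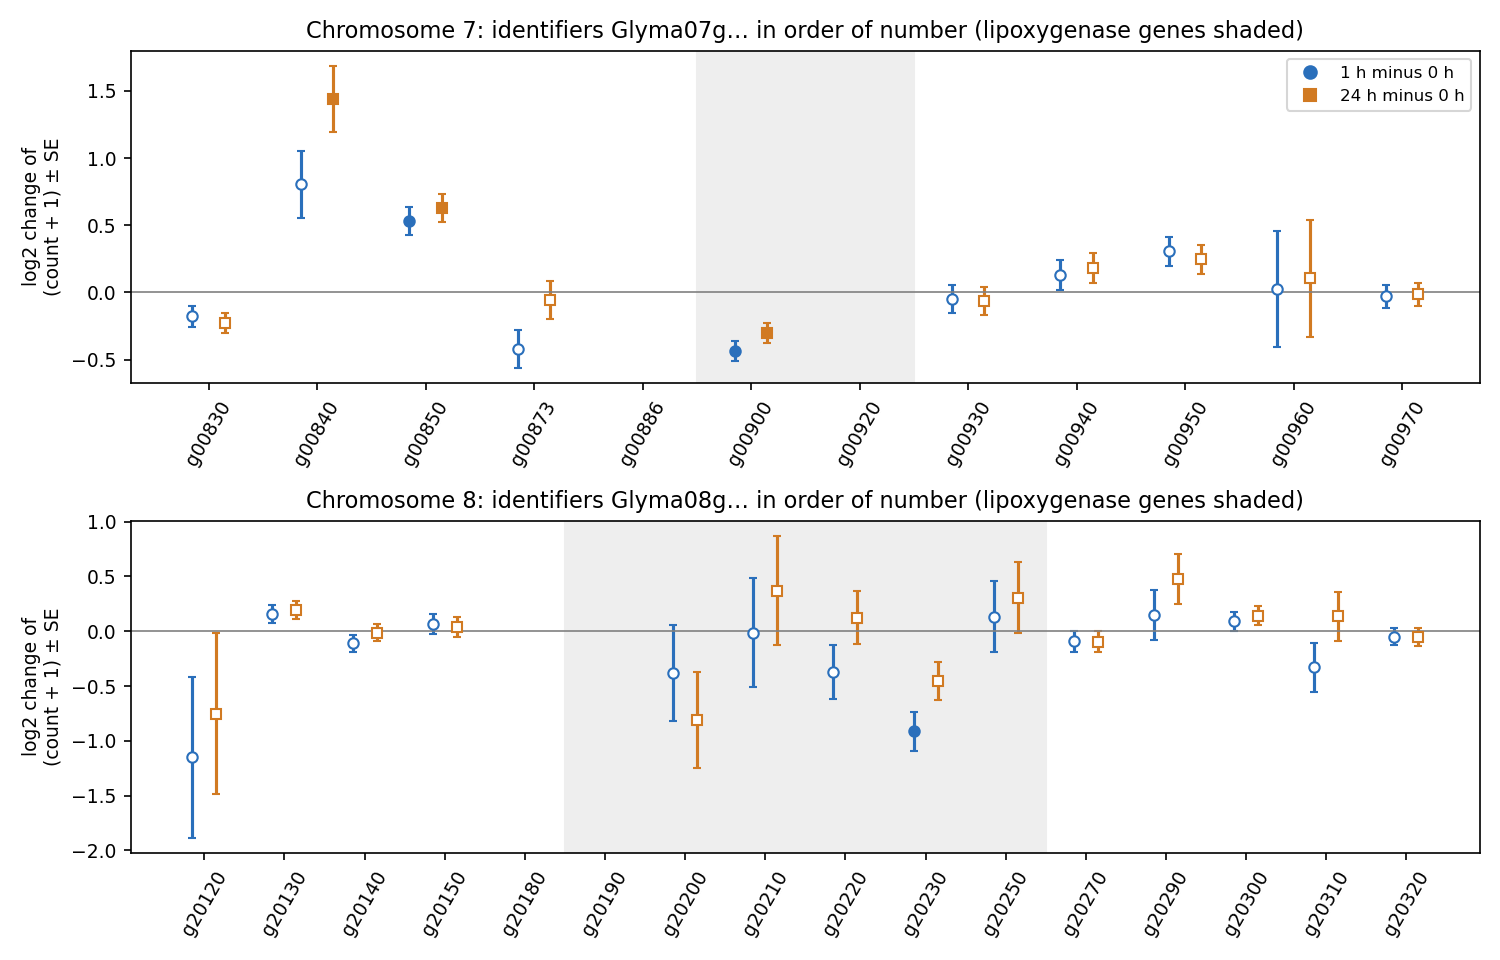
Log2 change of (normalized count + 1) with its moderated SE for the lipoxygenase genes (shaded) and the 5 nearest identifiers on each side, in order of identifier number and not to scale. Filled symbols have an adjusted p under 0.05. On chromosome 7 Glyma07g00900 is the filled gene below 0 and Glyma07g00850 and Glyma07g00840 are above 0, while on chromosome 8 Glyma08g20230 at 1 h is the only filled symbol.

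After the mean of each replicate number was removed, the log2 values of Glyma07g00900 and Glyma08g20230 correlated at 0.86 over the 9 libraries. Both were called lower at 1 h, and the change with time is most of what remains after that removal, so the value largely restates those calls. As high a correlation with Glyma07g00900 was reached by 4.86% of the other genes averaging 100 or more. The other 14 pairs of tested copies had values from -0.33 to 0.63. Highest among these was the pair Glyma08g20210 and Glyma08g20250. Without removing the mean the correlation of the first pair was 0.99, a value that the gap between replicate numbers largely sets. These correlations are descriptions over the same 9 libraries, which differ in depth.

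Among 28534 other genes with a mean of at least 100, Glyma04g39801 and Glyma05g30320 followed Glyma07g00900 most closely, with correlations of 0.996 and 0.994 over the 9 libraries after removal of the replicate means. Over the 3 times the normalized count of Glyma04g39801 was 18904, 16180 and 17270 in replicate 1, 19006, 15964 and 17603 in replicate 2, and 11792, 9110 and 9575 in replicate 3. A correlation over 0.9 was reached by 757 genes. Closest to Glyma08g20230 were Glyma17g27601 and Glyma10g20830, at 0.982 and 0.979, with 252 genes over 0.9. That of Glyma10g20830 was 241, 157 and 187 in replicate 1, 243, 136 and 206 in replicate 2, and 36, 21 and 31 in replicate 3, where it was low as Glyma08g20230 was. Glyma17g27601 was not low there, with 0 h counts of 224, 235 and 269. Such high values are frequent when many genes are searched over 9 libraries.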

How the data were processed

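Each deposited value is a score: a read count the authors normalized and then gave in whole numbers, per the title of the table and its values. Named without a role, per the submitters' processing notes, are DESeq 1.12 and cutadapt 1.2.1. Libraries were made with a TruSeq v2 kit, per the labels' protocols. No source used here names the aligner, the counter, its use of strand, the build or the annotation.

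The worth of 1 read was estimated from the even steps on which scores from 1 to 40 fell. Between 83.3% and 95.4% of these scores lay on a step, so the tests did not turn values back into reads, and count models were left out. Steps near 1 cover most whole numbers, so a high share says little there, as for 95.4% at a step of 1.17. The reads, depths and counting SEs given above are therefore rough estimates. Scores were analysed as log2(score + 1), which understates the change of low genes. Genes averaging 10 or more were fitted in 1 model of all 9 libraries with limma 3.58.1 in R 4.3.3 (eBayes with trend and robust), two-sided, with the replicate number as a block and a threshold of 0.05 on the Benjamini-Hochberg adjusted p. The fit was also run on simulated data with additive replicate offsets and independent normal noise. That run shares the assumptions of the model, so it cannot show whether the block or the eBayes settings suit these data.

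Groups and replicate numbers came from the sample titles. Same-numbered libraries departed from their group means together (correlations of 0.69 to 0.95 over 9 pairs). Correlations between libraries of different numbers are not given here. The values therefore cannot show that same-numbered libraries belong together, and the pairing rests on the numbers in the titles. With the block, p-values measure the scatter left after the differences between replicate numbers are removed, with a spread that draws on other genes. The labels do not say whether replicates were separate sowings, so this scatter may be technical.

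The members, lists and tests were chosen with earlier results of these data known. All copies in the table were named, neighbours by identifier number, and the 2 genes most like the most abundant copy of each chromosome by correlation. Other jasmonate genes were not listed, because no identifier had a name. Another 1467 identifiers are not of the Glyma form. Tables and figures used matplotlib 3.10.9 and pandas 2.3.3 in Python 3.11.15.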

Additional observations from a re-analysis of the deposited data

How the results depend on the processing

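Without the replicate block 0 genes were called in each comparison (limma, 539 genes at an unadjusted p under 0.05 at 1 h and 549 at 24 h) and 0 lipoxygenase copies. All 3 lipoxygenase calls were lost (adjusted p of 1), while the log2 changes of -0.433, -0.913 and -0.305 are the same with and without the block by construction in this balanced design. When eBayes ran with neither trend nor robust estimation, 0 genes passed at 1 h, 1 gene at 24 h, and 0 copies. Fits of only the 2 groups compared called 734 and 1185 genes, 1 copy at 1 h and 0 at 24 h, with fewer samples. Over the 20 alternatives with the block the call of Glyma07g00900 held in 14 at 1 h (adjusted p 0.00625 to 0.222) and in 6 at 24 h (0.0174 to 0.306), and that of Glyma08g20230 at 1 h in 11 (0.0183 to 0.251). Each of these changes kept its sign in all 20. Pseudocounts, filters and both scalings ended none of the 3 calls.

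Leaving out 1 library or 1 replicate number left 18 to 2178 genes at 1 h, 42 to 1964 at 24 h and 0 to 3 between 24 h and 1 h. It left 0 to 2 copies at 1 h and 0 at 24 h. At 1 h both calls ended without replicate 1 at 0 h, replicate 1 or 3 at 1 h, or number 1 or 2, and that of Glyma08g20230 also without replicate 2 at 0 h or at 1 h. The log2 change ran from -0.488 to -0.345 for Glyma07g00900 and from -0.992 to -0.801 for Glyma08g20230 at 1 h, and from -0.375 to -0.205 for Glyma07g00900 at 24 h. The cause was not tested. These fits also had fewer samples.

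Signs turned only in values that did not pass the test. Glyma08g20210 at 1 h was at 0.00256 with a pseudocount of 5 and 0.0451 with equal library totals. Leaving out libraries gave it -0.185 to 0.253 at 1 h, -0.0664 to 0.718 at 24 h and -0.085 to 0.696 between 24 h and 1 h. Such removals gave Glyma08g20250 -0.0528 to 0.455 at 1 h and -0.159 to 0.394 between 24 h and 1 h, Glyma08g20220 -0.181 to 0.336 at 24 h, and Glyma08g20200 -0.776 to 0.148 between 24 h and 1 h. Equal library totals changed the split of all calls to 1446 higher and 434 lower at 1 h, from 934 and 808, and to 918 and 1146 at 24 h, from 1173 and 820. Depth limits the low copies: counting of the estimated reads alone gave Glyma08g20210 an SE of 0.546 at 1 h. The limma SE of this gene was 0.50, which leaves no room above counting for scatter between plants. Its 95% interval may therefore be too narrow.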
